A study of Mus musculus with 27 samples.

Results

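The 10 genes described here encode transcription factors of mesenchymal lineages and 1 tendon protein: Ebf1, Ebf2, Ebf3, Zic1, Twist1, Prrx1, Meox1, Meox2, Tbx15 and Tnmd. They were chosen by symbol, as all 26 probe sets annotated to exactly 1 of these names, and make up 10 of the 18193 genes measured. Tnmd, Zic1 and Ebf3 had been picked for their pattern in these arrays, so their values are described without a test, and the other 7 genes were tested. The series compared mouse embryonic fibroblasts, cells grown out of embryos, of 3 lines: wild type, a knockout of PKBalpha (the kinase encoded by Akt1), and a line that the labels give as the knockout with PKBalpha rescued, called line R here. Cells of each line were left untreated or received 10 Gy of gamma irradiation and were taken 4 h or 24 h later, which makes 9 groups of 3 biological replicates (as labelled) on 27 Affymetrix arrays. The times of the wild-type arrays come from the sample titles alone, since the descriptions of the 6 wild-type samples titled 4 h or 24 h call them untreated; for the other lines titles and descriptions give the same times. All wild-type values given for 4 h and 24 h rest on those titles. All cells were female, at passage 45, grown with 10% fetal calf serum, and kept in culture for 24 h before irradiation. How long the untreated cells were kept is not stated, and each genotype was 1 line, so that genotype and line cannot be told apart.

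EBF1, EBF2 and EBF3 are zinc-finger and helix-loop-helix factors that bind DNA as dimers and act in B cells, fat cells, bone and stromal fibroblasts. TWIST1, PRRX1, MEOX1, MEOX2 and TBX15 belong to the helix-loop-helix, homeobox and T-box classes that pattern limb bud, somite and craniofacial mesenchyme, and ZIC1 is a zinc-finger factor of neural crest, dorsal somite and some fat depots. Fibroblasts keep parts of such position and lineage programmes in culture. Tenomodulin, encoded by Tnmd, is a transmembrane glycoprotein of tendon and ligament cells.

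Values are linear intensities, given per gene for its brightest probe set. A background level was set at 69.9 (6.13 on the log2 scale), the highest of 405 values of 15 probe sets annotated to Y-linked genes, which female cells lack. Array medians ran from 54.4 to 80.0. On 5 arrays the 3' to 5' ratios of the Gapdh and actin controls stood apart from those of the other 22 (Gapdh, log2, -0.19 to 0.16 against -0.47 to -0.30). Of these, 2 were wild-type arrays (replicate 2 untreated, replicate 0 at 4 h), 1 was the knockout's replicate 2 untreated, and 2 belonged to line R (replicate 1 untreated, replicate 2 at 24 h). Akt1 read 3549 in wild-type cells (geometric mean of 9 arrays), 21.5 in the knockout and 21.0 in line R, so in the line labelled as rescued this transcript was at the level of the knockout. Its second probe set read 2263, 5.56 and 50.7, and whether the rescue construct carries the sequences of these probe sets is not stated in the sources used here. All 11 fibroblast markers measured had means above background in wild-type and knockout cells and 10 of 11 in line R, whereas Pecam1, Cdh5, Ptprc and Myog, defining genes of endothelial, blood and muscle cells, lay below it in all 3 lines. Other genes of those lists did not: Csf1r, of macrophages, was above background on all 27 arrays (171, 135 and 114 in wild type, knockout and line R), Cd68 and Kdr were above it on all 9 wild-type arrays (95.9 and 299.5), and Acta1, a muscle actin, on 8 of 9 arrays of the knockout (174) and of line R (143).

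The main contrasts among the 10 genes were between the wild-type line and both other lines. Over the 9 arrays of each line, Ebf1, Tbx15 and Prrx1 were higher in the knockout and in line R than in wild-type cells. Ebf2 was lower in both, but it was above background on only 4 of 9 wild-type arrays and on no array of the other lines. Zic1 and Tnmd, picked for this pattern, read 2140.0 or more on every knockout array and below background on every wild-type array. Twist1 was lower in the knockout than in wild-type cells and higher in line R than in the knockout, Meox1 was above background only on arrays of line R, and Meox2 lay below background on all 27 arrays. By limma, with p values adjusted over all genes, 5 of the 7 tested genes passed 0.05 between knockout and wild type, where 33% of all genes did; 3 were higher (15.5% of all genes) and 2 lower (17.5%). Between line R and wild type 5 of 7 passed (34.1% of all genes), 4 higher (18.1%) and 1 lower (16%). Between line R and knockout 4 of 7 passed (17.1%), 4 higher (10.2%) and 0 lower (6.93%). Of these 4, Ebf2 was below background in both lines, and Meox1 was above it on 5 of 9 arrays of line R only. In untreated groups alone 0 of 7 passed in this comparison. Whether the tested genes differ in this from all genes was not tested, since they were chosen with results of these data known. The knockout and line R were compared with the same wild-type arrays. In these bulk samples, a lower level in each cell and a smaller share of cells expressing a gene cannot be told apart.

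**Figure D1:**
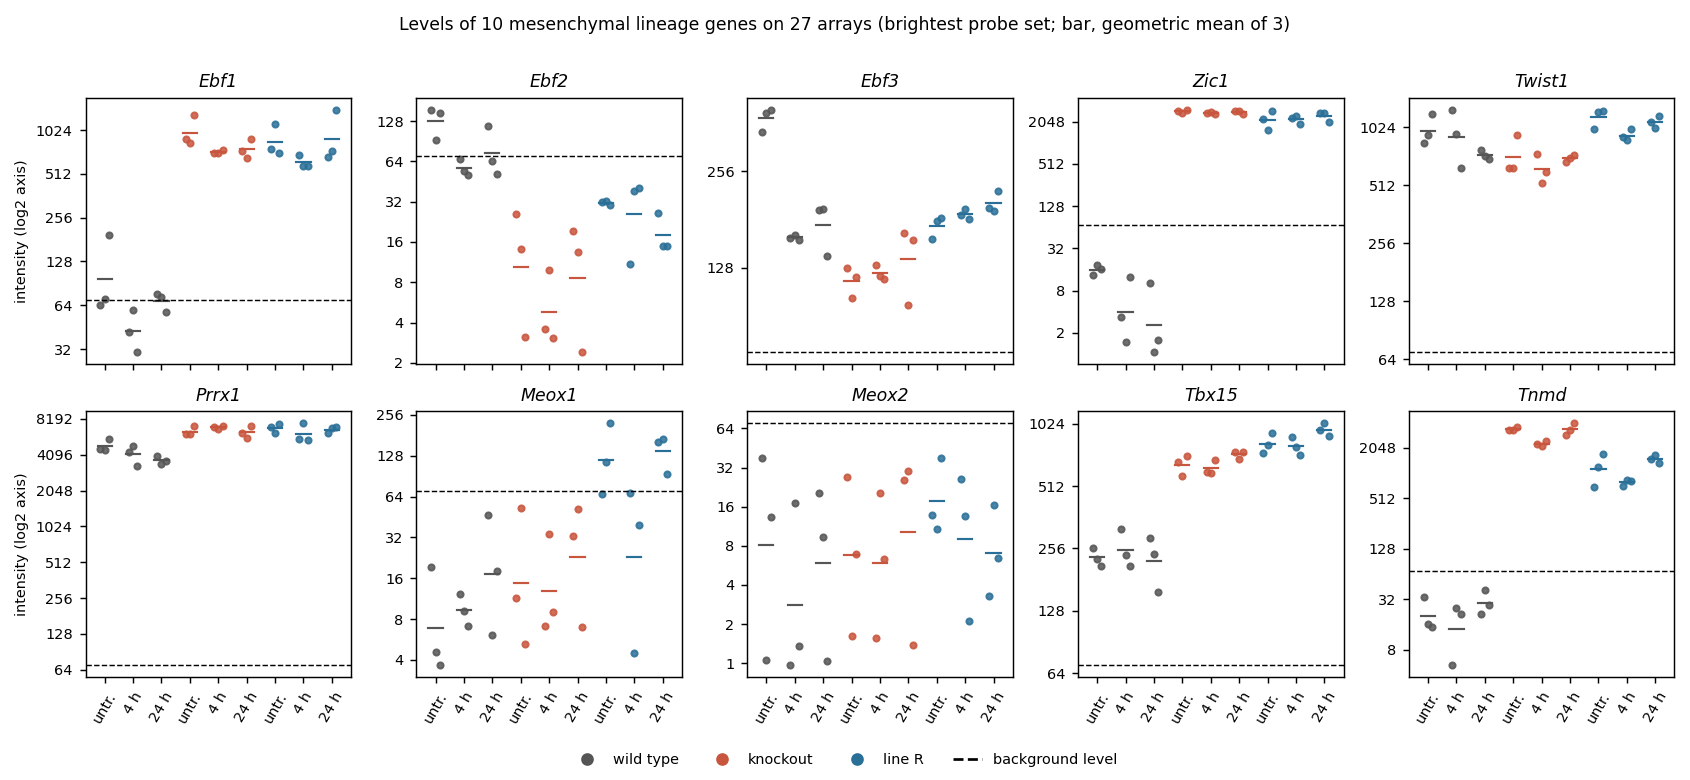
Intensity of each gene on a log2 axis (brightest probe set), 3 arrays for each of 9 groups, with wild-type, knockout and line R arrays in grey, red and blue; short bars are geometric means of 3 and the dashed line is the background level of 69.9. Zic1 and Tnmd lie below the dashed line on all 9 wild-type arrays and above it on all arrays of the other lines, and Meox2 lies below it on all 27.

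Stretches just upstream of the annotated starts of Ebf1 and Tnmd are shown because these genes read near or below background in wild-type cells and high in the other lines, yet differ in the make-up of that stretch. They are the 250 bases before the start in RefSeq (GRCm38.p6), chr11:44617850-44618099 for Ebf1 and chrX:133850758-133851007 for Tnmd, both on the plus strand, with the capitals marking CG dinucleotides.
Ebf1 upstream: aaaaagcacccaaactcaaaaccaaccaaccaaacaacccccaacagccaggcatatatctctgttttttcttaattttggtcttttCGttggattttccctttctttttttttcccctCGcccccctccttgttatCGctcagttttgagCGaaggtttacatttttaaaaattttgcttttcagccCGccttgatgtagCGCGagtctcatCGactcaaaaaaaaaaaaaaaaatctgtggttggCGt
Tnmd upstream: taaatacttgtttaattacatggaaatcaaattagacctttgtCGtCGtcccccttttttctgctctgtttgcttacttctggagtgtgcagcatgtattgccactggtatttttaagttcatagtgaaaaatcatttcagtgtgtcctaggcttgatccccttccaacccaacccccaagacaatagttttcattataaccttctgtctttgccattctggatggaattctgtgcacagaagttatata
The Ebf1 stretch held 9 CG dinucleotides, more than 59.7% of 32851 promoter windows of that length, and the Tnmd stretch held 2, more than 18.8% of them (median over all windows 6). Windows were listed for 7 of the 10 genes. Ebf3 had 43 CG dinucleotides, Zic1 27, Twist1 18, the second start of Ebf1 14, Meox2 12 and Prrx1 4. The genes that read high in the knockout thus ranged from CG-poor to CG-rich. The windows were searched for 4 motifs on both strands, with overlaps between motifs allowed. The core promoter element TATAAA was present in 12.4% of all windows. The E-box CANNTG, which helix-loop-helix factors such as TWIST1 bind, was present in 66.2%. The homeobox factor core TAATTA was present in 4.84%, and the palindromic EBF motif in 0.779%. TAATTA was found in the windows of Tnmd and Prrx1, TATAAA in those of Twist1 and Meox2, CANNTG in those of Zic1, Meox2 and the second start of Ebf1, and the EBF motif in none of the members' windows.

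Ebf1 (chr11:44618100-45008096, GRCm38.p6) was higher in the knockout and in line R. In wild-type cells the 3 arrays read 64.4, 70.8 and 195 untreated, 30.7, 41.6 and 59.2 at 4 h, and 58.0, 73.2 and 77.0 at 24 h. In the knockout they read 828, 884 and 1296, then 711, 716 and 748, then 654, 740 and 883, in the same order of conditions. Line R gave 717, 755 and 1120, then 580.0, 582 and 690, then 670, 733 and 1405. No array of either line overlapped the wild-type arrays, of which 4 of 9 lay above background, and the wild-type value of 195 came from 1 of the 5 arrays with the other control ratios. Of those 5 arrays, which include arrays of all 3 lines, only 1 read below the others of its group. The median deviation of the 5 was 0.61 on the log2 scale and the highest 1.53. Since most wild-type arrays were below background, the fold is a bound: Ebf1 was at least 10.2-fold higher in the knockout (log2 difference 3.63 ± 0.20 SE, adjusted p = 1.69e-11, limma) and at least 9.69-fold higher in line R (3.56 ± 0.20, adjusted p = 2.11e-11). Between line R and the knockout the log2 difference was -0.07 (95% interval -0.50 to 0.35, adjusted p = 0.87). Of the other 4 probe sets of Ebf1, 3 also separated both lines from the wild type without overlap, by at least 6.71-fold to 8.70-fold in the knockout, and the last was below background throughout.

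Ebf2 (chr14:67233292-67430952), an EBF member known from brown fat precursors and bone, ran the other way at a low level. In untreated wild-type cells the arrays read 92.5, 148 and 155, all above background, against 50.7, 54.1 and 67.1 at 4 h and 51.8, 65.0 and 118 at 24 h. In the knockout all 9 arrays lay between 2.42 and 26.1, and in line R between 10.99 and 40.7, so that neither line reached any wild-type array. Ebf2 was lower in the knockout (-3.43 ± 0.43, adjusted p = 1.97e-06) and in line R (-1.73 ± 0.43, adjusted p = 0.003), but as both lines were below background the levels give a fold of at least 1.16 only. In untreated groups alone the difference of line R did not pass (-2.03, adjusted p = 0.0631). The log2 difference of 1.69 between line R and the knockout (adjusted p = 0.008) was a difference between values that were all below background, and no level is drawn from it. The other 2 probe sets had means below background in every line.

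Ebf3 (chr7:137193671-137322805), picked for its pattern, was above background on all 27 arrays and highest in untreated wild-type cells. These read 341, 388 and 398, against 157, 159 and 162 at 4 h and 139, 194 and 196 at 24 h. Knockout arrays read 103, 119 and 128 untreated, 118, 120.2 and 130.5 at 4 h, and 98.0, 156 and 164 at 24 h. Line R arrays read 157, 178.5 and 183, then 181, 187 and 196, then 193, 196 and 222. The 3 untreated wild-type arrays thus lay above all others, while irradiated wild-type arrays overlapped those of line R. Over the 3 conditions the geometric mean was 218 in wild type, 125 in the knockout and 187 in line R; among untreated groups alone the log2 difference from the wild type was -1.69 in the knockout and -1.12 in line R, against -0.81 and -0.22 over all conditions. A second probe set also put the untreated wild-type arrays (189 to 191) above those of the knockout (55.8 to 117) and line R (97.4 to 109), which overlapped. On the third, wild-type arrays read 84.5, 255 and 266, where 84.5 came from 1 of the 5 arrays set apart; on this probe set all 5 read below the others of their group, by a median of -1.17 on the log2 scale.

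**Figure D2:**
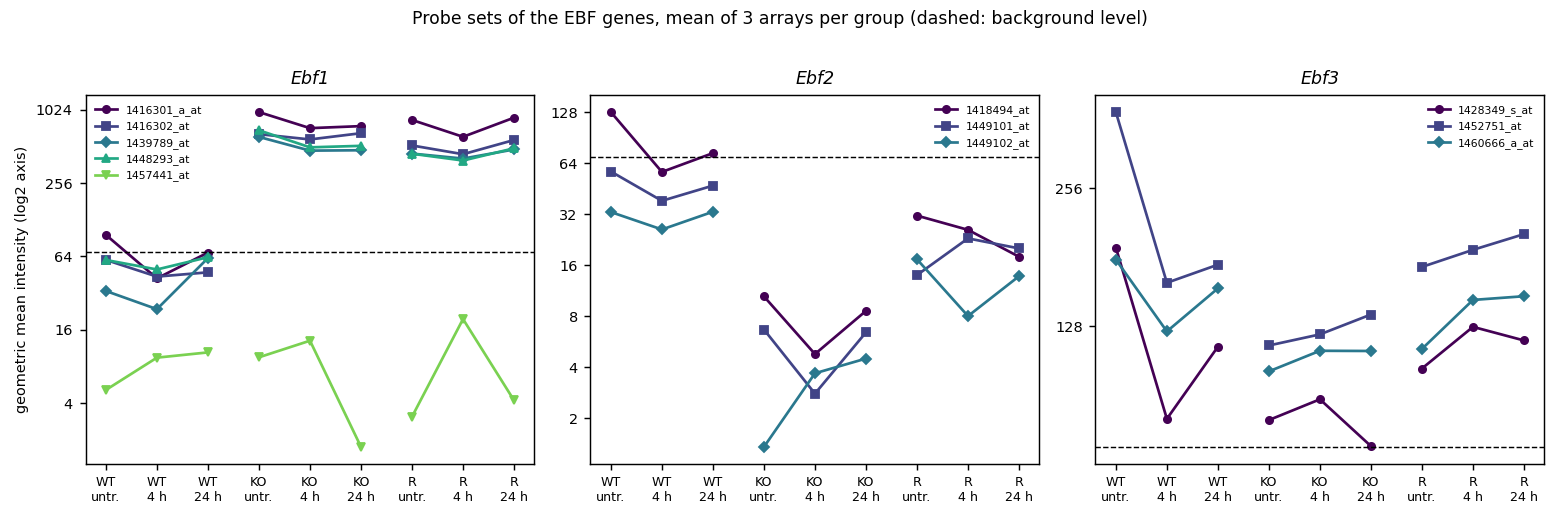
Geometric mean intensity of 3 arrays (log2 axis) for every probe set of Ebf1, Ebf2 and Ebf3 in the 9 groups, with lines joining the conditions of 1 cell line (WT wild type, KO knockout, R line R) and the background level dashed. In Ebf1, 4 of the 5 probe sets step up together in KO and R, the Ebf2 probe sets lie at or below background outside wild type, and the Ebf3 probe sets peak in untreated wild-type cells.

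Zic1 (chr9:91358058-91365768), picked for its pattern, read 13.6, 16.2 and 18.4 in untreated wild-type cells, 1.47, 3.34 and 12.6 at 4 h, and 1.08, 1.59 and 10.2 at 24 h, all below background. In the knockout it read 2710, 2867 and 2993 untreated, 2611, 2706 and 2800 at 4 h, and 2610, 2874 and 2939 at 24 h. In line R it read 1552, 2196 and 2870, then 1903, 2290 and 2451, then 2037, 2724 and 2758. Its level was at least 39.9-fold higher in the knockout and at least 32.5-fold higher in line R than in wild-type cells, and the knockout arrays spanned a narrow range, within 2610 to 2993 on all 9. The second probe set read 9.28 in wild-type cells (geometric mean, all arrays below background), 721 to 989 in the knockout and 430 to 701 in line R, so that by this probe set, and not by the brighter one, all line R arrays lay below all knockout arrays. Zic4 (chr9:91365631-91389351), a paralogue whose annotated span overlaps the start of Zic1, read 5.44 in wild type, 61.8 in the knockout and 88.1 in line R (geometric means), with 0, 2 and 6 of 9 arrays above background. It was higher in line R than in wild-type cells (4.02 ± 0.47, adjusted p = 7.34e-07), by at least 1.26-fold.

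Twist1 (chr12:33957671-33959831), a helix-loop-helix factor of cranial and limb mesenchyme, was well above background on every array and moved little. Wild-type arrays read 849, 929 and 1199 untreated, 626.5, 949 and 1256 at 4 h, and 702, 729 and 782 at 24 h. Knockout arrays lay between 526 and 933 (median 672) and line R arrays between 877 and 1237 (median 1019). All 3 lines overlapped pairwise. Twist1 was 1.28-fold lower in the knockout than in wild type (-0.36 ± 0.12, adjusted p = 0.0253) and 1.55-fold higher in line R than in the knockout (0.63 ± 0.12, adjusted p = 0.000787), and did not pass between line R and wild type (0.27, 95% interval 0.02 to 0.52, adjusted p = 0.0882). The first call ended with equal array medians (-0.17, adjusted p = 0.228), in the untreated groups alone (adjusted p = 0.155), on the compared arrays only (0.0633), and without any 1 of replicate 2 of untreated wild type, replicate 0 of wild type at 4 h, replicates 0 or 1 of untreated knockout or replicate 1 of the knockout at 4 h (adjusted p 0.0547 to 0.0586), and the second in the untreated groups alone (0.68, adjusted p = 0.076). The third passed without the 5 arrays set apart (0.37, adjusted p = 0.00804), without the first or the second of those wild-type arrays alone (0.0462 and 0.0176) and with equal array medians (0.0241); Twist1 read higher on all 5 arrays set apart than on the others of their group (median 0.43 on the log2 scale).

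Prrx1 (chr1:163245119-163315145), a paired-type homeobox factor of limb bud mesenchyme, was higher in both other lines than in wild type. Wild-type arrays read 4449, 4588 and 5548 untreated, 3316, 4358 and 4858 at 4 h, and 3415, 3607 and 4027 at 24 h. Knockout arrays lay between 5683 and 7186 (median 6782), all above every wild-type array, and line R arrays between 5421 and 7508 (median 6837), of which the lowest was under the highest wild-type value. The fold was 1.57 in the knockout (0.65 ± 0.09, adjusted p = 5.54e-06) and 1.56 in line R (0.64 ± 0.09, adjusted p = 6.44e-06). Between line R and the knockout the log2 difference was -0.01 (95% interval -0.19 to 0.17, adjusted p = 0.966). Among the untreated groups alone the knockout difference was 0.41 and did not pass (adjusted p = 0.0744). Of the other 5 probe sets, 3 gave larger differences for the knockout, 1.09 to 1.18 (adjusted p over probe sets at most 2.99e-05), another gave 0.94 without passing (0.0549) and the last was below background. The one that did not pass read low on all 5 arrays set apart (median -1.72 against the others of their group). On 3 of the other probe sets line R read lower than the knockout, 2040 against 2457, 1236 against 1589 and 1802 against 2217 (geometric means). Another read 1954 against 1937, and the arrays of both lines overlapped on each.

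Meox1 and Meox2, homeobox factors of the somites, were at or below the limit of these arrays. Meox1 (chr11:101877510-101894354) read at most 46.7 in wild-type cells and at most 52.9 in the knockout. In line R the arrays read 66.9, 115 and 221 untreated, 4.501, 39.7 and 67.5 at 4 h, and 94.5, 162 and 171 at 24 h. Thus 5 of 9 line R arrays lay above background, none of them at 4 h. Line R passed against wild type (2.80 ± 0.61, adjusted p = 0.000958) and against the knockout (2.15 ± 0.61, adjusted p = 0.0173), the latter not without the 5 arrays set apart (1.998, adjusted p = 0.0644) nor in untreated groups alone (3.03, adjusted p = 0.132). With a geometric mean of 72.3 in line R, the levels give a fold of at least 1.03 only. Meox2 (chr12:37108540-37179534) read 38.2 or less on every array, so no difference is given for it.

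Tbx15 (chr3:99240348-99354260), a T-box factor of skin fibroblasts, skeleton and subcutaneous fat, was higher in both other lines. Wild-type arrays read 211, 228 and 258 untreated, 210.2, 237.5 and 316.5 at 4 h, and 157, 242 and 288 at 24 h. Knockout arrays read 574, 667 and 712, then 591, 602 and 688, then 693, 746 and 749.6. Line R arrays read 738, 812 and 923, then 724, 793 and 880.1, then 890.1, 960.2 and 1028. The wild-type arrays lay below all arrays of the other lines, which overlapped each other. Tbx15 was 2.84-fold higher in the knockout (1.51 ± 0.11, adjusted p = 5.93e-10) and 3.65-fold higher in line R (1.87 ± 0.11, adjusted p = 2.1e-11) than in wild type. Line R was 1.28-fold above the knockout (0.36 ± 0.11, adjusted p = 0.0222), a call that ended with equal array medians (0.21, adjusted p = 0.211), with the mean of both probe sets (0.22, adjusted p = 0.451), in untreated groups alone (0.34, adjusted p = 0.406) and without replicate 1 of the untreated knockout (0.33, adjusted p = 0.0501). The second probe set read 53.2 to 200.2 in wild type, 200.2 to 652 in the knockout and 213 to 770.0 in line R. On it all 5 arrays set apart read below the others of their group, by a median of -1.64 on the log2 scale.

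Tnmd (chrX:133851008-133865577), picked for its pattern, was the only member for which all 3 lines kept apart by their brightest probe set. Wild-type arrays read 15.1, 16.2 and 34.6 untreated, 5.25, 21.2 and 25.5 at 4 h, and 21.6, 27.2 and 41.4 at 24 h, all below background. Knockout arrays read 3325, 3400.0 and 3645 untreated, 2140.0, 2277 and 2496 at 4 h, and 2952, 3336 and 4017 at 24 h. Line R arrays read 699, 1213 and 1748 untreated, 713, 831 and 860.1 at 4 h, and 1365, 1519 and 1666 at 24 h. All line R arrays lay below all knockout arrays and above all wild-type arrays. The level was at least 43.0-fold higher in the knockout and at least 15.9-fold higher in line R than in wild type, and 2.70-fold lower in line R than in the knockout (log2 difference -1.43, -1.60 among untreated groups and -1.41 without the 5 arrays set apart).

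By the brightest probe sets, knockout arrays lay wholly above the wild-type arrays for 5 of the 10 genes (4.1% of all genes) and wholly below for 1 (6.39%), 10.5% of all genes separating in either direction. For line R and wild type the counts were 4 above (4.31% of all genes) and 1 below (5.9%), 10.2% in either direction, and for line R and knockout 0 above (1.86%) and 1 below (1.57%), 3.43% in either direction; since 3 genes were picked for such patterns, nothing is read from these counts. Some markers of other cell types differed between lines. Krt14, an epithelial keratin, read 758 in wild-type cells against 6.01 in the knockout and 5.93 in line R, and the summed level of 7 epithelial markers was 707 to 1355 per wild-type array, 110 to 215 in the knockout and 109 to 256 in line R. Kdr, an endothelial receptor, read 299.5, 35.1 and 42.5, and the sum of 7 endothelial markers 260 to 699, 65.8 to 155 and 101 to 155. Krt14 and Kdr made up most of these sums in wild-type cells (median sums 1083 and 392). Only 2 of 7 epithelial markers and 1 of 7 endothelial markers had a mean above background in wild-type cells, with Cdh1, Pecam1 and Cdh5 below it on all arrays. Epcam, an epithelial marker, did not fall with Krt14 (59.0 in wild type, 67.7 in the knockout and 64.4 in line R). The sum of 6 neural markers ran the other way, 403 to 625 in wild type, 715.5 to 1107 in the knockout and 737 to 1450.0 in line R; Tubb3, a neuronal tubulin, read 61.5, 563 and 392 and was at least 6.75-fold higher in the knockout (3.20 ± 0.24, adjusted p = 1.71e-09) and at least 4.69-fold in line R (2.67 ± 0.24, adjusted p = 2.2e-08). Of the 6 neural markers, 1 was called higher and 0 lower in the knockout (15.5% and 17.5% of all genes). In line R 2 were higher and 1 lower (18.1% and 16%). Gap43 went against the sum (113, 52.7 and 16.9), and Map2 read 225, 241 and 500. In each line 2 of the 6 had a mean above background. The sum of 6 haematopoietic markers was 339 to 533, 250.3 to 412 and 207 to 347, ranges that overlapped. The counts of these other lists stand beside the same shares of all genes. Of 7 epithelial markers 0 were called higher and 4 lower in the knockout, and 0 and 3 in line R. For 7 endothelial markers the counts were 0 and 1 in each line. For 6 haematopoietic markers they were 0 and 1 in the knockout and 0 and 2 in line R. The part of such markers in the differences between lines was not tested.

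**Figure D3:**
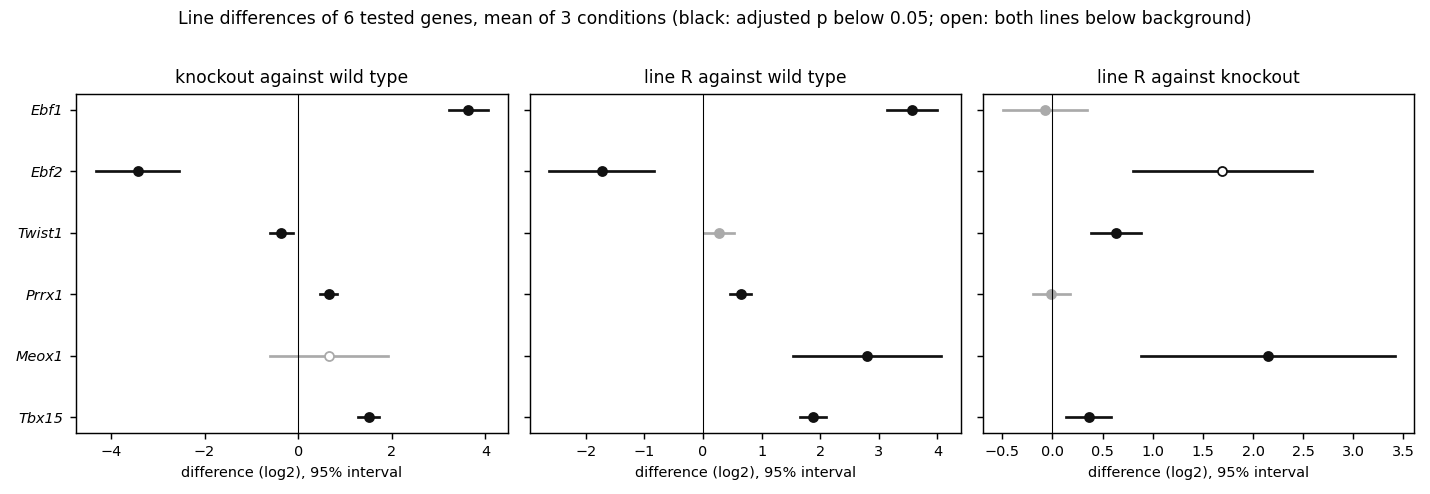
Log2 differences between lines over the 3 conditions for 6 of the 7 tested genes (points) with 95% intervals (bars); black passes adjusted p below 0.05, grey does not, and open points mark pairs with both means below background. Meox2, below background on all arrays, is left out; Ebf1 and Tbx15 lie to the right of 0 and Ebf2 to the left in both comparisons with the wild type.

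After irradiation none of the 7 tested genes passed the threshold in any line or at either time. In wild-type cells the count was 0 of 7 at 4 h (3.25% of all genes passed) and 0 of 7 at 24 h (0.0495%). In the knockout it was 0 of 7 at 4 h (0.368%) and at 24 h (0%, with 1064 of 18193 genes at an unadjusted p under 0.05), and in line R 0 of 7 at 4 h (0.978%) and at 24 h (0%, with 830 at an unadjusted p under 0.05). The difference in response between the knockout and the wild type passed for 0 of 7 genes at 4 h (0.011% of all genes) and 24 h (0.0055%), as did that between line R and the wild type (0.0165% and 0.0055%). A p above the threshold does not show that a gene did not change, and intervals were wider for the dim genes than for the bright ones. For Tbx15 the 4 h intervals were -0.27 to 0.50 in wild type, -0.44 to 0.33 in the knockout and -0.43 to 0.34 in line R.

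Among the tested genes, Ebf1 in wild-type cells at 4 h came nearest to the threshold. It read 96.2 untreated and 42.3 at 4 h (geometric means; -1.19 ± 0.35, adjusted p = 0.0678), values that straddle the background level, and -0.66 without the 5 arrays set apart (adjusted p = 0.158), which hold its highest untreated value. The difference passed when tested among genes above the median level (adjusted p = 0.0234) or with an intensity trend in the prior variance (0.0372), while the mean of all its probe sets gave -0.30 (0.727). Ebf2 in the same comparison read 128 and 56.9 (-1.17 ± 0.74, adjusted p = 0.458) and passed with an offset of 50 before log2 (-0.74, adjusted p = 0.0187). At 24 h wild-type Prrx1 read 3674 against 4838 untreated (-0.40 ± 0.15, adjusted p = 0.429), with no overlap of the 3 arrays of each group, and Twist1 737 against 981 (-0.41 ± 0.21, adjusted p = 0.542). Other probe sets of Prrx1 in wild-type cells differed in direction at 24 h. They read 986 against 1668 untreated and 924 against 1065, but 1002 against 875 and 895 against 715 (geometric means). Meox1 in line R read 22.9 at 4 h against 119.5 untreated (-2.38 ± 1.05, adjusted p = 0.294).

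The 3 genes picked for their pattern are described. Ebf3 in wild-type cells read 375 untreated, 159 at 4 h and 174 at 24 h (geometric means), differences of -1.24 and -1.10, with every irradiated array below every untreated array. In the knockout it read 116, 123 and 136 and in line R 172, 188 and 203, which gave differences of 0.08 and 0.22, and 0.12 and 0.24. The spread within the 24 h knockout arrays (98.0 to 164) spanned the untreated values. With the mean of its 3 probe sets the wild-type differences were -0.998 and -0.68, and without the 5 arrays set apart -1.19 and -1.06. Tnmd in the knockout read 3454 untreated, 2300.0 at 4 h and 3407 at 24 h; the 3 arrays at 4 h lay below all others of that line. The log2 difference at 4 h was -0.59 in the knockout and -0.51 in line R, where the 4 h arrays (713 to 860.1) overlapped the untreated ones. Zic1 in the knockout read 2854, 2705 and 2804, and in line R 2139, 2202 and 2483, differences that lay within the spread of the arrays of each group.

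**Figure D4:**
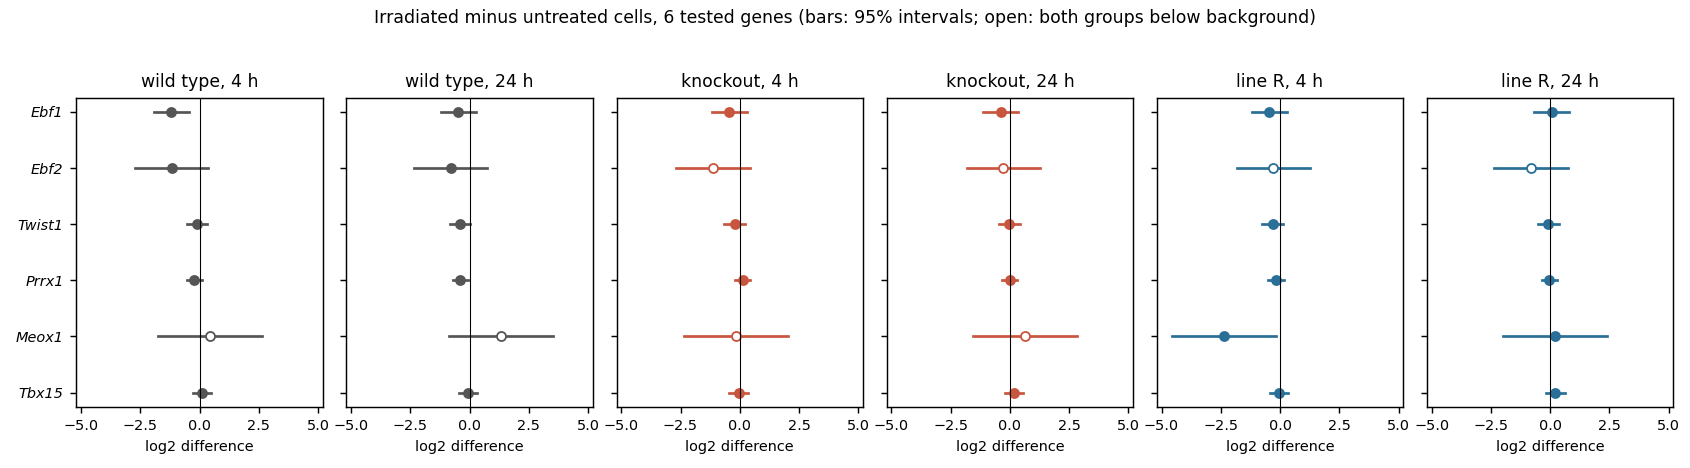
Log2 differences between irradiated and untreated cells (points) with 95% intervals (bars) for 6 tested genes, in wild type, knockout and line R at 4 h and 24 h; open points mark pairs with both means below background, and Meox2 is left out. None of the differences passed the threshold after adjustment over all genes, and the intervals of Meox1 and Ebf2 are the widest.

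Other tendon and ligament genes differed in both directions between lines. Counts for this and the lists below stand beside shares of all genes of 15.5% higher and 17.5% lower in the knockout, and 18.1% higher and 16% lower in line R. Of 15 such genes measured, 4 were higher and 3 lower in the knockout than in wild type, with a median log2 difference of 0.14 over the 15 (all genes -0.02), and 4 and 3 in line R (median 0.10, all genes 0.04). Tnc, the matrix protein tenascin C, was 6.42-fold higher in the knockout (2.68 ± 0.24, adjusted p = 2.3e-08) and 4.98-fold higher in line R. Dcn, the collagen-binding proteoglycan decorin, was 3.32-fold lower in the knockout (-1.73 ± 0.16, adjusted p = 2.54e-08) and 10.9-fold lower in line R (-3.45 ± 0.16, adjusted p = 7.49e-13). Scx, the tendon lineage factor scleraxis, read 86.8 in wild type and below background in the knockout (35.6) and line R (29.0), while Mkx, a homeobox factor of tendon, read 436, 479 and 458. Thbs4, Kera, Comp, Cilp, Cilp2, Chodl and Cnmd, the nearest relative of Tnmd, lay below background on all 27 arrays. After irradiation 2 of the 15 fell in wild-type cells at 4 h (1.74% of all genes fell), among them Fmod, the proteoglycan fibromodulin, from 2136 to 664.5 (-1.68 ± 0.42, adjusted p = 0.0309), and 0 passed in the knockout or line R at 4 h; the Fmod call held under 8 of 16 alternatives.

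The partners of TWIST1 and factors of the epithelial to mesenchymal transition changed in both directions. Of 14 (all genes 15.5% higher and 17.5% lower in the knockout, 18.1% and 16% in line R), 5 were higher and 5 lower in the knockout (median -0.18, which became 0.01 with equal array medians) and likewise 5 and 5 in line R (median 0.00, all genes 0.04). Id2, an inhibitor of helix-loop-helix factors, was 5.64-fold lower in the knockout (-2.50 ± 0.21, adjusted p = 1.07e-08) and 4.72-fold lower in line R. Snai1, a zinc-finger repressor of epithelial genes, was 3.85-fold higher in the knockout (1.94 ± 0.21, adjusted p = 2.38e-07) and 3.18-fold in line R. Twist2, the paralogue of Twist1, was 2.45-fold higher in the knockout (1.29 ± 0.09, adjusted p = 5.54e-10). Twist1 was lower there, a call that 8 of 29 alternatives ended. Twist2 was 1.499-fold lower in line R than in the knockout (-0.58 ± 0.09, adjusted p = 0.000116), and Twist1 was higher. Each of the calls between line R and the knockout ended under 1 of 29 alternatives. At 4 h after irradiation Tcf4, an E protein that pairs with TWIST1, fell in wild-type cells from 3175 to 1906 (-0.74 ± 0.15, adjusted p = 0.0136), a call that 4 of 16 alternatives ended. Id2 rose in the knockout at 4 h from 211 to 703 (1.74 ± 0.37, adjusted p = 0.0451), a call that 12 of 16 alternatives ended.

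Among limb and craniofacial homeobox genes, relatives of Prrx1, 3 of 12 were higher and 5 lower in the knockout (median -0.64, all genes -0.02) and 2 and 3 in line R (median 0.10), against shares of all genes of 15.5% and 17.5%, and 18.1% and 16%. Only 5 of the 12 had a mean above background in either line of each comparison, and of these 2 were higher and 2 lower in the knockout and 2 and 1 in line R, so the excess of lower calls lay in genes below background. Shox2, a factor of the proximal limb, was 3.73-fold higher in the knockout (1.90 ± 0.09, adjusted p = 1.8e-12) and 6.13-fold in line R (2.61 ± 0.09, adjusted p = 1.47e-14), and Lhx9 at least 2.08-fold and 1.47-fold. Of 9 further T-box genes, relatives of Tbx15, 1 was higher and 1 lower in the knockout, and 0 and 2 in line R, and only 2 of the 9 were above background. Tbx18 was 1.23-fold higher in the knockout (0.30 ± 0.08, adjusted p = 0.00638) but 1.57-fold lower in line R than in wild type (-0.65 ± 0.08, adjusted p = 2e-06), and Tbx3 was at least 1.97-fold lower in both lines. Of 13 somite and paraxial mesoderm genes, 4 were higher and 3 lower in each line (medians 0.17 and 0.46), of which 3 and 2 in the knockout and 4 and 2 in line R had a mean above background. En1, a homeobox factor of dermomyotome and ventral limb ectoderm, read 7.51 in wild type, 385 in the knockout and 283 in line R, at least 5.52-fold and 4.05-fold higher. Eya1, a transcriptional cofactor of the early somite and kidney, was at least 5.91-fold and 6.73-fold higher, and Six2 at least 2.26-fold lower in both.

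**Figure D5:**
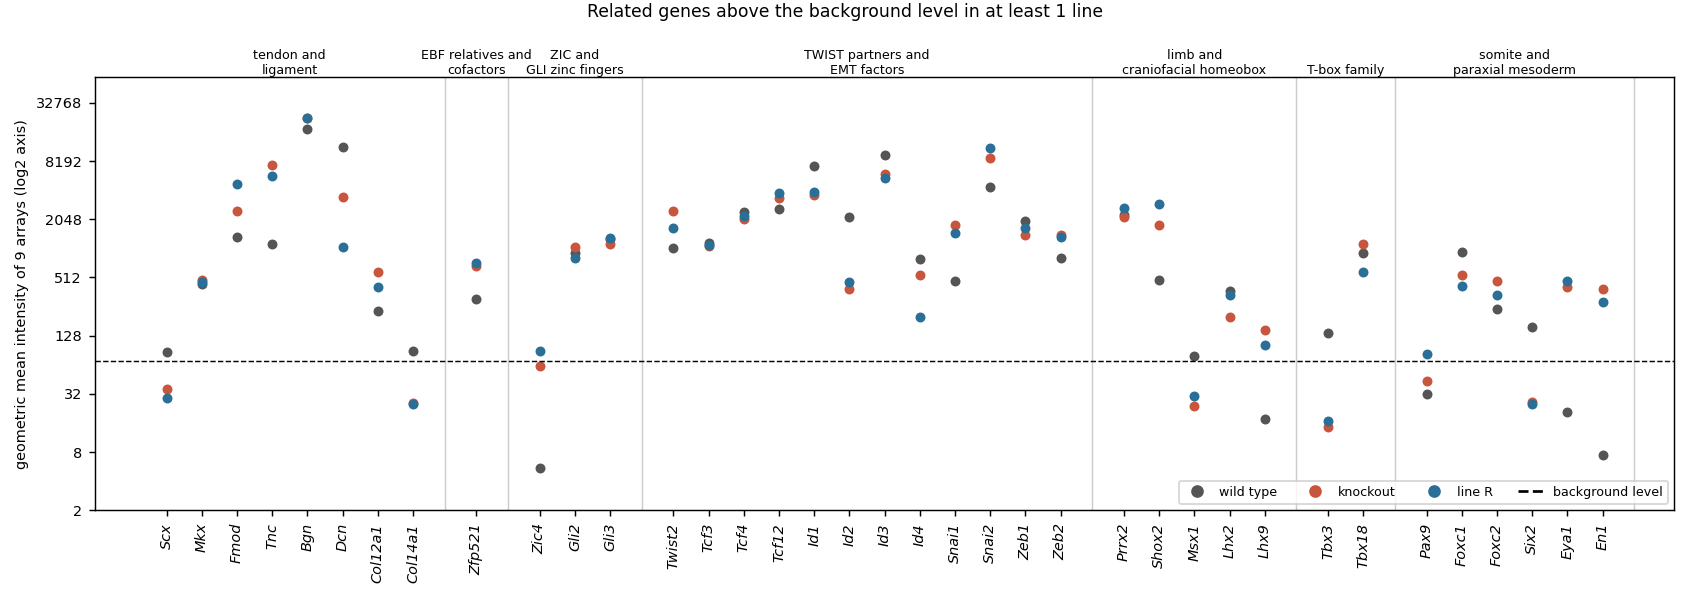
Geometric mean intensity over the 9 arrays of each line (log2 axis; grey wild type, red knockout, blue line R) for the genes of 7 related lists that had a mean above the background level (dashed) in at least 1 line. Knockout and line R points lie on the same side of the wild type for Eya1, En1, Shox2, Tnc, Dcn and Id2, and Mkx differs little between lines.

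Of the cofactors and relatives of EBF, 1 of 3 passed in each comparison with the wild type. This was Zfp521, a zinc-finger protein known to bind EBF1, which read 308 in wild type, 680.4 in the knockout (1.14 ± 0.10, adjusted p = 2.2e-08) and 720.3 in line R (1.23 ± 0.10, adjusted p = 7.8e-09). Of 6 ZIC and GLI genes, 3 were higher and 0 lower in both lines, but none of the 3 had a mean above background in the knockout, and only Zic4 did in line R. The following counts stand beside the same shares of all genes (15.5% and 17.5% in the knockout, 18.1% and 16% in line R). Of 9 fat cell genes, 2 were higher and 3 lower in the knockout and 0 and 4 in line R, with Lpl, lipoprotein lipase, 2.69-fold and 3.25-fold lower. Cebpa ran the other way, with 127 in wild type, 208 in the knockout and 154 in line R. Of 8 cartilage and bone genes, 2 were higher and 3 lower in the knockout and 1 and 3 in line R, with Alpl, alkaline phosphatase of osteoblasts, 3.19-fold and 5.27-fold lower. Sox9, a cartilage factor, ran the other way, with 272 in wild type, 640 in the knockout and 976 in line R. Of 8 skeletal muscle genes, 1 was higher in each line and 1 lower in the knockout. Of 11 fibroblast markers, 4 were higher and 2 lower in the knockout and 3 and 3 in line R, and Thy1, a surface glycoprotein of fibroblasts, was 5.77-fold higher in the knockout (2.53 ± 0.14, adjusted p = 1.53e-11) and 3.06-fold in line R. In wild-type cells Thy1 fell at 4 h from 3349 to 1128 (-1.57 ± 0.24, adjusted p = 0.00253), a call that 1 of 16 alternatives ended. Cebpa, of the fat cell genes, fell in line R at 4 h from 218 to 82.0 (-1.41 ± 0.32, adjusted p = 0.042), a call that 8 of 16 alternatives ended. Over all genes 3.25% and 0.978% passed in these 2 comparisons.

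The genes with the most similar patterns to the 3 picked genes were named by Pearson correlation of log2 values over the 27 arrays, among 11373 genes with a group mean above background. Nearest to Tnmd were Angpt1 (0.97; 26.8 in wild type, 604 in the knockout and 495 in line R), Dact1 (0.97) and Hspb6 (0.97). Nearest to Zic1 were Tspan14 (0.98), Hoxc9 (0.98; 14.2, 1360.0 and 1588) and Lgalsl (0.97). Nearest to Ebf3 were Agtrap (0.78), Cygb (0.77) and Cda (0.75), so no gene followed Ebf3 as closely. These arrays come from 3 lines, and a gene that differs between lines correlates with any other that does: Ebf1 and Zic1 had a correlation of 0.95 over the 27 arrays and 0.15 after each line's mean was removed, and Zic1 and Tnmd 0.94 and -0.14.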

How the data were processed

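Processing of RNA and arrays before deposit was the authors'. The deposited values are linear intensities for 45101 probe sets on 27 Affymetrix Mouse 430 2.0 arrays; per the submitters' processing notes RMA and GCRMA were named, with no role given, and the method behind the deposited values is not given in the sources used here. Every array had the same trimmed mean of 500.003 with 2% removed at each end, so the authors' intensities were scaled to a common level. Values were taken to log2 with no offset, 64 control probe sets were left out, and 34945 probe sets with 1 gene symbol (932 had several, 9160 none) were reduced to the brightest for each of 18193 genes. Positions are those of RefSeq on GRCm38.p6.

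Group means were fitted across all genes with limma 3.58.1 (R 4.3.3; 9 groups, 18 residual degrees of freedom), and p values were adjusted by Benjamini-Hochberg within each of 13 comparisons, with a threshold of 0.05; intervals are 95% and unadjusted. Line comparisons average the 3 conditions. Tables and figures used Python 3.11.15, pandas 2.3.3 and matplotlib 3.10.9. The fit was also run on simulated data, with differences set only in genes above the median level, so that run does not cover dim genes. A fold against a line below background uses, for each dim array, the higher of its value and the background level, and is written as a lower bound. The number of arrays, 3 in a group, limits the precision, and p values measure the spread between these arrays.

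The members and gene lists were chosen with earlier results of these data known. All members are named. Named genes of each list were drawn from those past the threshold with the largest differences and a mean above background. These were up to 3 for a line comparison, not all of which are named, and up to 1 for an irradiation comparison. Defining markers are named by level. The alternatives were quantile normalization, equal array medians, an offset of 50, other summaries of probe sets, genes above the median level, a trend in the prior variance, the replicate block, the compared arrays only, untreated groups alone, and leaving out arrays. Deviations of same-numbered arrays had correlations of -0.79 to 0.83 (108 pairs, median 0.03), and 14 of 27 arrays correlated best with their own number. These values do not settle whether numbers are pairs. The main fit did not take them as pairs, and the replicate block did.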

Additional observations from a re-analysis of the deposited data

Results flagged for a closer look

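Arrays of Ebf3 lay on opposite sides of the untreated mean in different lines. By the brightest probe set, every irradiated wild-type array lay below the mean of untreated wild-type cells, and every irradiated array of line R lay above the mean of its untreated cells; the same held for the knockout at 4 h. The difference in response at 4 h was 1.32 on the log2 scale for the knockout against the wild type and 1.36 for line R against the wild type, and at 24 h it was 1.34 for line R against the wild type. These differences came almost wholly from the wild type (-1.24 at 4 h and -1.10 at 24 h), since the differences in the other lines were 0.08 to 0.24, and the 24 h knockout arrays spanned the untreated ones. On the second probe set the differences at 4 h were -1.24 in wild type, 0.15 in the knockout and 0.30 in line R, and at 24 h -0.72, -0.19 and 0.20. On the third they were -0.52, 0.15 and 0.35 at 4 h and -0.21, 0.15 and 0.38 at 24 h. The wild-type times rest on the sample titles, which the descriptions contradict. Ebf3 had been picked for its pattern in these arrays, all these differences share the untreated wild-type arrays, and the difference was not tested.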

How the results depend on the processing

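For the tested genes, the number that passed between knockout and wild type was 5, and 3 in untreated groups alone. Between line R and knockout it was 4, and 2 among genes above the median level and 0 in untreated groups alone. Ebf2 and Meox1, which passed in that comparison, were below the median level and so were not tested in the first of these settings. In wild-type cells at 4 h it was 0, and 1 with an offset of 50 (Ebf2), 1 among genes above the median level (Ebf1) and 1 with a trend in the prior variance (Ebf1). With 1 array left out, the counts ran from 4 to 5, from 5 to 6 (line R against wild type, 5 with all arrays) and from 3 to 4, and stayed at 0 for every irradiation comparison. With the replicate block the counts were 5, 5 and 4 for the line comparisons and 0 elsewhere, as without it; 14 of 27 arrays correlated best with their own number. The log2 difference of Prrx1 between line R and knockout, -0.01, became 0.0175 with quantile normalization, 0.0254 without the 5 arrays set apart and 0.0956 in untreated groups alone. It ran from -0.0602 to 0.0199 with 1 array left out. The lowest value of any alternative, -0.388, came with the mean of all its probe sets, which include a probe set below background. Under no alternative did this difference pass (lowest adjusted p = 0.168, limma). The cause of these shifts was not tested. Equal array medians moved the median of all genes by 0.19 for knockout against wild type, -0.15 for line R against knockout, 0.13 for wild type at 4 h and -0.13 for line R at 24 h, and the share of calls that were higher from 46.9% to 66.5%, from 59.6% to 32.4%, from 46.5% to 66.5% (wild type at 4 h) and from 40.3% to 70.0% (knockout at 4 h). Over all genes the calls were 6002 between knockout and wild type (3202 to 10048 under the other settings), 6196 for line R against wild type (3418 to 10930), 3118 for line R against knockout (690 to 4699), 592 in wild type at 4 h (0 to 1152), 67 in the knockout at 4 h (0 to 317) and 178 in line R at 4 h (0 to 618). With 1 array left out, the counts over all genes at 4 h were 190 to 481 in wild type, 0 to 18 in the knockout and 11 to 388 in line R, and at 24 h 3 to 23 in wild type, 0 to 6 in the knockout and 0 to 2 in line R, so the shares of all genes called after irradiation depend on single arrays; between lines they were 5600 to 6017, 5833 to 6283 and 2709 to 3204. Genes near or below background (Ebf2, Meox1, Meox2 and wild-type Ebf1) have log2 differences that depend on values the arrays do not resolve: with an offset of 50, the difference of Zic1 between knockout and wild type was 5.60 in place of 8.99 and that of Tnmd 5.40 in place of 7.21.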
